A study of Mus musculus with 6 samples.

Results

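Osteoclasts are the multinucleated cells that resorb bone, and they arise from the same M-CSF-dependent myeloid precursors as macrophages. The cytokine RANKL binds its receptor RANK on the precursor and, together with ITAM-bearing co-receptors, induces the transcription factor NFATc1, which drives genes for cell fusion, for attachment to the matrix, for acid secretion and for digestion of collagen. Several of these genes are also transcribed at some level in macrophages. Here 10 such genes were examined in bone marrow-derived macrophages (BMDMs) exposed to high salt: *Tnfrsf11a*, *Oscar*, *Itgb3*, *Nfatc1*, *Dcstamp*, *Ocstamp*, *Car2*, *Atp6v0d2*, *Ctsk* and *Acp5*. They were selected on the known role of their products in osteoclasts and with the NaCl-to-control differences in these libraries already known, so their differences between NaCl and control are given as a description. Of the 10 genes, 9 were among the 15903 genes tested, out of 57010 annotated genes. *Oscar* was not, because its 6 libraries held 4 counts in total.

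BMDMs were grown from bone marrow of 3 *Cx3cr1*GFP mice of the C57BL/6J strain, whose *Cx3cr1* locus carries a GFP sequence, for 7 days with 10 ng/ml M-CSF. Cells of every mouse were either left unstimulated (control, n = 3) or received 62 mM excess NaCl for 24 h (NaCl, n = 3), and polyadenylated RNA of the adherent cells was sequenced. Age and sex are not given in the labels, both groups carry the GFP allele and M-CSF, and no addition of RANKL is named for either. The comparison of NaCl with control asks how BMDMs respond to excess salt. The reads counted on genes ranged from 8520433 to 20123570 in control and from 4088065 to 11610020 in NaCl libraries, the smallest being NaCl replicate 3, in which 1235 of the genes tested had no count.

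The label of the genes was checked against the defining markers of osteoclasts. *Calcr*, the calcitonin receptor of mature osteoclasts, had 0 counts in all 6 libraries. *Oscar*, a collagen-binding co-receptor of the osteoclast lineage, had 1, 0 and 0 counts in control replicates 1, 2 and 3 and 1, 2 and 0 counts in NaCl replicates 1, 2 and 3. A count of 0 allows up to 3 counts, which is 0.151 CPM (counts scaled by library size, the usual sequencing unit) in the deepest and 0.719 CPM in the shallowest library for counting error only, so no level could be told from 0 and no fold change is given for *Oscar*. *Tnfsf11*, the gene of RANKL, also had 0 counts in all 6 libraries, and its decoy receptor *Tnfrsf11b* had 4 counts in total. By contrast *Mmp9*, a gelatinase of osteoclasts that macrophages also make, lay between 27.3 and 47.0 CPM in control and between 26.8 and 44.1 CPM in NaCl. The 11 macrophage markers, among them *Adgre1* and *Cd68*, were all measured, with a summed level of 16291 to 18667 CPM in control and 25492 to 32803 CPM in NaCl, much of it from *Lyz2*. Of these 11 markers 4 were higher and 7 lower, with a median log2 fold change of -0.07. *Lyz2* (lysozyme) went from 9817 ± 524 to 19148 ± 3609 CPM and *Cd14* (a co-receptor for lipopolysaccharide) from 288 ± 14.2 to 644 ± 69.0 CPM (n = 3 each), and both rose (log2 fold changes 0.96 and 1.16, adjusted p = 0.0424 and 0.00699 in edgeR). With the mouse as a replicate block 3 macrophage markers were past the threshold as higher (*Lyz2*, *Cd14* and *Csf1r*) and 2 as lower. Of all genes 4.60% were higher and 4.30% lower in that fit. The lower ones, named after their values were seen, were *Mrc1* (the mannose receptor, log2 fold change -0.98) and *C1qc* (a chain of complement C1q, -0.44), with adjusted p = 1.40e-05 and 0.0170 in edgeR with the block and 0.505 and 0.393 without it. In bulk RNA a change in the number of expressing cells and a change in RNA per cell cannot be told apart.

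Upstream sequences of some of these genes were searched for short motifs. RefSeq start sites (build GRCm38.p6) were found for 4 of the 10 genes. The 250 bases before the start are printed for *Ctsk* and *Acp5*, both of which were higher in NaCl in 3 of 3 mice, and for *Tnfrsf11a*, which was not. The *Ctsk* window is chr3:95498960-95499209 on the plus strand, the *Acp5* window is chr9:22130599-22130848 on the minus strand (1 of its 3 start sites, the one that holds a motif in capitals), and the *Tnfrsf11a* window is chr1:105780473-105780722 on the plus strand. Capitals mark matches, on either strand, to PU.1 (GAGGAA), the M-box bound by the MITF family (TCANGTG), AP-1 (TGANTCA) or the tonicity element TonE.
Ctsk: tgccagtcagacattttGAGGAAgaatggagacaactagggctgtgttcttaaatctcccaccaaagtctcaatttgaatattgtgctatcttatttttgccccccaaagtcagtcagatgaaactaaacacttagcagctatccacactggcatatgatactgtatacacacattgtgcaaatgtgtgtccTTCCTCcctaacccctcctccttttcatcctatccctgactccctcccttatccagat
Acp5: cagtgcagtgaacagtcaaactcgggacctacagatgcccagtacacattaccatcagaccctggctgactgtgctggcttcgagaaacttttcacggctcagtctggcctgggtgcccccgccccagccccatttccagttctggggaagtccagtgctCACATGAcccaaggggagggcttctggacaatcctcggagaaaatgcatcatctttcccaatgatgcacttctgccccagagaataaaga
Tnfrsf11a: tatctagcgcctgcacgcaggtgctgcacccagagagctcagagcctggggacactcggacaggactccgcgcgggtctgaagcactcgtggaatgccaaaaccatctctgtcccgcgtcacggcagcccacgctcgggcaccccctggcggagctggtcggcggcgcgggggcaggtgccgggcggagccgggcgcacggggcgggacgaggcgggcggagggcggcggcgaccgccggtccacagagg

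The *Ctsk* window held 2 PU.1 matches, starting 233 and 58 bases before the start site, and PU.1 matches are in 23.25% of all 32851 such windows. The printed *Acp5* window held 1 M-box match 90 bases before the start site, and M-box matches are in 12.2% of all windows. That share is per window, whereas the printed window was picked out of 3 for its match, so the 2 are not comparable. The windows of the other *Acp5* start sites held no M-box or PU.1 match. In the *Oscar* window, not printed, there were 1 PU.1 match and 1 M-box match, 237 and 39 bases before the start site. *Oscar* itself had 4 counts in total. No window of *Ctsk*, *Acp5*, *Tnfrsf11a* or *Oscar* held a TonE or AP-1 match, where 4.31% and 6.75% of all windows do. The short NFAT core GGAAA, which every TonE also contains, is in 55.6% of all windows and was not marked. The *Ctsk* window held none, the printed *Acp5* window held 2, its other windows 1 each, and the *Oscar* window 3. The *Tnfrsf11a* window held none of the 5 motifs and was 73.6% G or C, against 43.2% for *Ctsk* and a median of 52.4% over all windows. These matches describe letters only.

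Differences between NaCl and control were taken from edgeR's quasi-likelihood fit to all 15903 genes, with p-values adjusted by the Benjamini-Hochberg method and a threshold of 0.05, first without the mouse and then with the mouse as a replicate block, since each NaCl library has a control from the same mouse. Levels are in CPM, and differences are log2 fold changes with their standard error (SE). *Car2* and *Ctsk* had the largest fold changes of the members and were higher in NaCl, *Acp5* was moderately higher, *Atp6v0d2* and *Itgb3* were lower, and *Tnfrsf11a*, *Nfatc1*, *Dcstamp* and *Ocstamp* lay closer to their control levels. Without the mouse, 2 of the 9 members (*Car2* and *Ctsk*) were past the threshold as higher and 0 as lower, where 0.478% of all genes were higher and 0.176% lower. At an unadjusted p under 0.05 there were 3 higher and 2 lower, where 6.63% of all genes were higher and 6.01% lower, and DESeq2 also gave 2 and 0, with 1.54% of all genes higher and 0.975% lower. With the mouse as a replicate block 3 members were higher (*Acp5* added) and 2 lower (*Atp6v0d2* and *Itgb3*), where 4.60% of all genes were higher and 4.30% lower. DESeq2 with the replicate block gave 2 higher and 1 lower, without *Acp5* and *Itgb3*, where 2.84% of all genes were higher and 2.23% lower. The libraries of the groups did not overlap for 4 of the 9 members, against 19.0% of all genes. Because the members were chosen with this contrast known, nothing is read from these counts. Without control replicate 2, and likewise without control replicate 3, 0 members were past the threshold, and without NaCl replicate 3 only *Ctsk* was. The share of all genes called in the fits with a library left out was not counted.

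**Figure D1:**
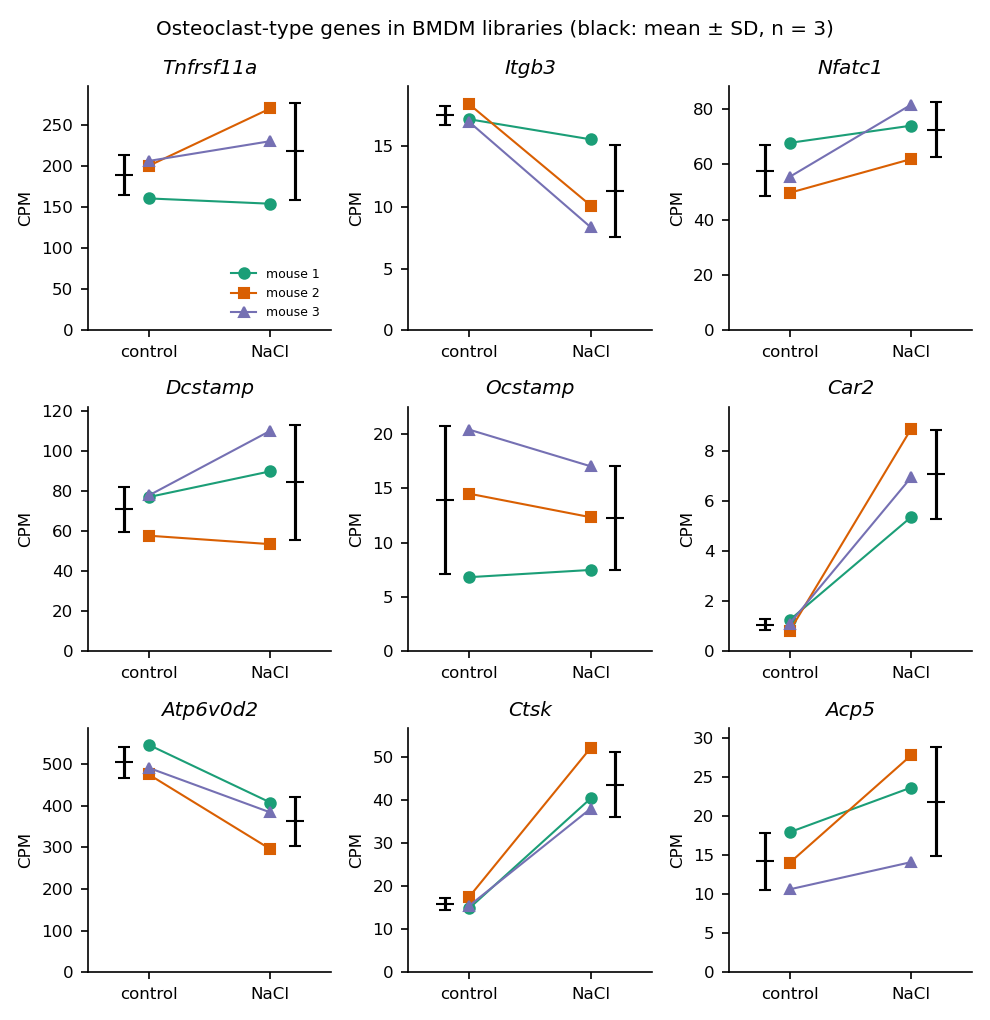
CPM of the 9 measured osteoclast-type genes in each library, with a line joining the control and NaCl library of a mouse and black bars for mean ± SD (n = 3 each), every axis starting at 0. The lines of *Car2* and *Ctsk* rise steeply in all 3 mice, those of *Atp6v0d2* and *Itgb3* fall in all 3, and those of *Ocstamp* run nearly level at 3 different heights.

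The receptors come first in the pathway. *Tnfrsf11a* (ENSMUSG00000026321.9, chromosome 1), which encodes RANK, was at 161, 201 and 207 CPM in control and at 154, 271 and 231 CPM in NaCl replicates 1, 2 and 3. The groups overlapped, since mouse 1 was the lowest in both, and NaCl was slightly lower than control in mouse 1 and higher in mice 2 and 3. The log2 fold change was 0.21 (SE 0.20) without and 0.18 (SE 0.12) with the block. *Itgb3* (ENSMUSG00000020689.5, chromosome 11) encodes the beta chain of the vitronectin receptor, through which osteoclasts attach to bone matrix. It was at 17.2, 18.4 and 16.9 CPM in control and at 15.5, 10.2 and 8.38 CPM in NaCl replicates 1, 2 and 3. All 3 NaCl libraries lay below all 3 control libraries, but mouse 1 hardly differed, with a within-mouse log2 ratio of -0.14 against -0.85 and -0.999 in mice 2 and 3. *Itgb3* had a log2 fold change of -0.60 (SE 0.22), and -0.64 (SE 0.18) with the block. The partner chain *Itgav* was at 231, 442 and 486 CPM in control and 302, 458 and 578 CPM in NaCl replicates 1, 2 and 3, a log2 fold change of 0.20 (SE 0.29, adjusted p = 0.824 in edgeR).

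*Nfatc1* (ENSMUSG00000033016.17, chromosome 18), the master transcription factor of the lineage, was at 67.7, 49.6 and 55.4 CPM in control and at 73.9, 61.8 and 81.4 CPM in NaCl replicates 1, 2 and 3. NaCl was the higher library in 3 of 3 mice, yet the groups overlapped, because control replicate 1 exceeded NaCl replicate 2. Its log2 fold change was 0.33 (SE 0.16) and 0.33 (SE 0.12) with the block, and it was past the threshold in neither fit. Of the other NFAT genes, *Nfatc2* had a log2 fold change of -0.00058 (SE 0.13), *Nfatc3* of 0.04 (SE 0.13) and the tonicity-responsive *Nfat5* of 0.19 (SE 0.15), and *Nfatc4* had 2 counts in total. None of the 3 tested passed the threshold, with adjusted p-values from edgeR of 1.00, 0.944 and 0.668, and with the block 0.998, 0.916 and 0.416.

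Fusion of precursors requires the membrane proteins DC-STAMP and OC-STAMP. *Dcstamp* (ENSMUSG00000022303.10, chromosome 15) was at 77.1, 57.8 and 77.9 CPM in control and at 90.0, 53.6 and 110.2 CPM in NaCl replicates 1, 2 and 3. Mouse 2 was the lowest in both groups and was also the mouse in which NaCl was below control. *Ocstamp* (ENSMUSG00000027670.5, chromosome 2) was at 6.82, 14.5 and 20.4 CPM in control and at 7.49, 12.3 and 17.0 CPM in NaCl replicates 1, 2 and 3. Here the order of the mice was the same in both groups, with mouse 1 lowest and mouse 3 highest, and NaCl stayed near the control of the same mouse. The log2 fold changes with the block were 0.21 (SE 0.13) for *Dcstamp* and -0.15 (SE 0.17) for *Ocstamp*, neither past the threshold.

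Acid secretion into the resorption space needs protons from carbonic anhydrase II and a V-type proton pump. *Car2* (ENSMUSG00000027562.13, chromosome 3), which encodes that enzyme, had the largest difference of the members. It was at 1.25, 0.815 and 1.11 CPM in control, from 11, 9 and 22 counts, and at 5.36, 8.88 and 6.95 CPM in NaCl replicates 1, 2 and 3, from 48, 98 and 29 counts. The groups did not overlap, and the lowest NaCl library was far above the highest control library. The log2 fold change of *Car2* was 2.74 (SE 0.31), a 6.66-fold higher level, with within-mouse log2 ratios of 1.95, 3.18 and 2.46 on log2 CPM with a prior count of 2. It stayed between 2.51 and 2.92 with each library left out in turn and was past the threshold in 3 of those 6 fits. The other carbonic anhydrases lay nearer to their control levels: *Car13* averaged 22.2 ± 2.52 CPM without and 21.6 ± 0.493 CPM with NaCl (SD, n = 3 each), and the log2 fold changes of the 4 tested, *Car5b*, *Car7*, *Car9* and *Car13*, ran from -0.31 to 0.26 with none past the threshold without or with the block. Of the 15 other family members 11 had fewer than 10 counts, including *Car1* with 0. Since *Car2* is also abundant in red cell precursors, erythroid markers were read beside it. *Car1* and *Slc4a1* had 0 counts in all 6 libraries, and the 3 of 11 markers that were tested summed to between 1.01 and 1.82 CPM in control and between 0.719 and 3.02 CPM in NaCl.

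*Atp6v0d2* (ENSMUSG00000028238.7, chromosome 4), the d2 subunit of the membrane sector of the proton pump, was the most abundant member and went the other way. It was at 546, 475 and 491 CPM in control and at 408, 296 and 384 CPM in NaCl replicates 1, 2 and 3. The groups did not overlap and NaCl was lower in 3 of 3 mice. The log2 fold change was -0.48 (SE 0.15), and -0.49 (SE 0.12) with the block. Its widely expressed counterpart *Atp6v0d1* averaged 162 ± 8.01 CPM without and 143 ± 18.2 CPM with NaCl (SD, n = 3 each), which is -0.18 on the log2 scale (SE 0.13, adjusted p = 0.635, and 0.386 with the block, in edgeR). Of 15 other V-ATPase subunits and accessory proteins tested, 10 were lower and 5 higher, with log2 fold changes from -0.58 to 0.23 and a median of -0.08, against a median of -0.01 over all genes tested. Of these 15 only *Atp6v0a1*, which encodes the a1 subunit, was past the threshold with the block, as lower, where 4.30% of all genes were.

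Matrix is digested by cathepsin K, and tartrate-resistant acid phosphatase is the classical stain of osteoclasts. *Ctsk* (ENSMUSG00000028111.5, chromosome 3), the gene of cathepsin K, was at 14.9, 17.6 and 15.5 CPM in control and at 40.5, 52.2 and 38.1 CPM in NaCl replicates 1, 2 and 3. The control libraries were close together, and every NaCl library was well above them. The log2 fold change of *Ctsk* was 1.45 (SE 0.17), a 2.74-fold higher level, and the 3 within-mouse log2 ratios of 1.43, 1.56 and 1.29 were alike. It stayed between 1.30 and 1.54 with each library left out in turn and was past the threshold in 4 of those 6 fits. The other 9 cysteine cathepsin genes had log2 fold changes from -0.33 for *Ctsl* to 0.38 for *Ctsw*, the latter at no more than 0.272 CPM in any library. None of these 9 was past the threshold without or with the block, while 1 (*Ctsh*, log2 fold change 0.27) had an unadjusted p under 0.05 in edgeR and 0 were called in DESeq2. *Acp5* (ENSMUSG00000001348.16, chromosome 9), the gene of the phosphatase, was at 17.97, 14.04 and 10.6 CPM in control and at 23.7, 27.8 and 14.1 CPM in NaCl replicates 1, 2 and 3. NaCl was higher in 3 of 3 mice, but the groups overlapped because mouse 3 was the lowest in both. *Acp5* had a log2 fold change of 0.66 (SE 0.26), and 0.62 (SE 0.16) with the block. An antisense gene, 6530413G14Rik, covers 6.75% of the exonic bases of *Acp5*, and since the libraries hold no strand information those reads could not be assigned. Of the 75-base windows of *Acp5* transcripts 3.41% occur in another gene, against 0.419% for *Ocstamp* and 0 for the other 8 genes.

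**Figure D2:**
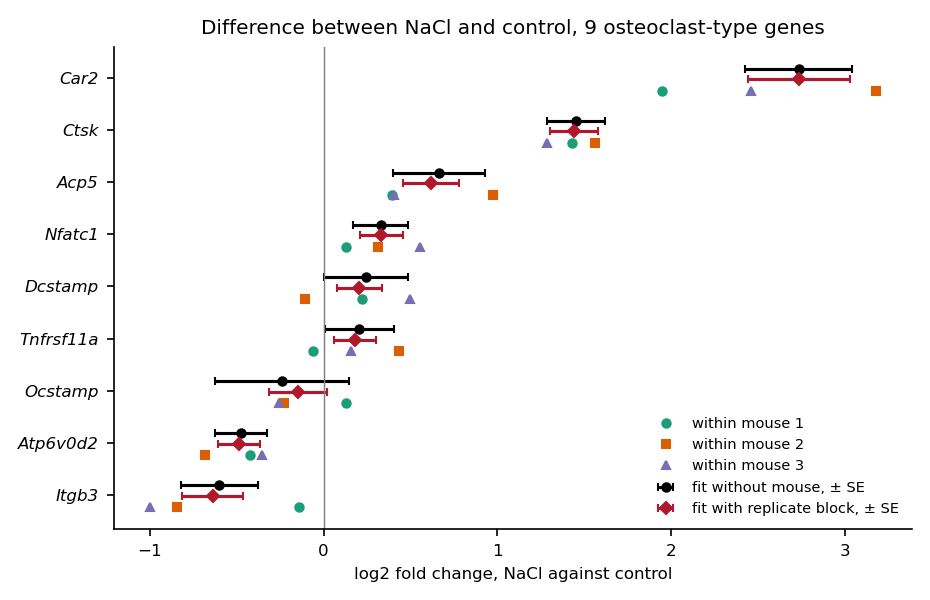
Log2 fold change of NaCl against control for the 9 measured osteoclast-type genes (x axis), from the fit without the mouse (black, ± SE), the fit with a replicate block for mouse (red, ± SE) and within each mouse (coloured symbols, log2 CPM with a prior count of 2). *Car2* at 2.74 and *Ctsk* at 1.45 lie apart from the rest, and the within-mouse symbols of *Dcstamp*, *Tnfrsf11a* and *Ocstamp* fall on both sides of 0.

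NaCl and control differed in the same direction in 3 of 3 mice for 6 of the 9 members, 4 of them higher and 2 lower, while 43.6% of all genes tested did so. How far the mice differed, whatever the treatment, was read from the same 6 libraries. Earlier results of these were known when the genes were chosen, so it is likewise a description. The difference between mice was tested with the mouse terms of the blocked edgeR fit over all genes, a test added after the values had been seen. It was past the threshold for 4 of the 9 members, where 8.89% of all genes were. Of the 129 other osteoclast genes described below, 23 passed it. So did 3 of 11 macrophage, 5 of 13 neutrophil, 3 of 8 monocyte and 0 of 10 dendritic cell markers. Differences between mice were thus not particular to the members. Each mouse gave 1 control and 1 NaCl library, so a difference between mice cannot be told from one in culture or preparation. *Ocstamp* had the widest range between mice, 1.39 on the log2 scale (adjusted p = 0.000206 in edgeR), and mouse 3 exceeded mouse 1. *Dcstamp* had a range of 0.72 (adjusted p = 0.00616 in edgeR), with mouse 2 the lowest. *Acp5* had a range of 0.72 (adjusted p = 0.0286 in edgeR), with mouse 3 the lowest, and *Tnfrsf11a* a range of 0.57 (adjusted p = 0.0280 in edgeR), with mouse 1 the lowest. The lowest mouse was thus mouse 1 for both *Ocstamp* and *Tnfrsf11a*, and another one for *Dcstamp* and for *Acp5*. For *Ctsk* and *Car2* the ranges were 0.32 and 0.42 (adjusted p = 0.339 and 0.729 in edgeR), against a median range of 0.42 over all genes.

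**Figure D3:**
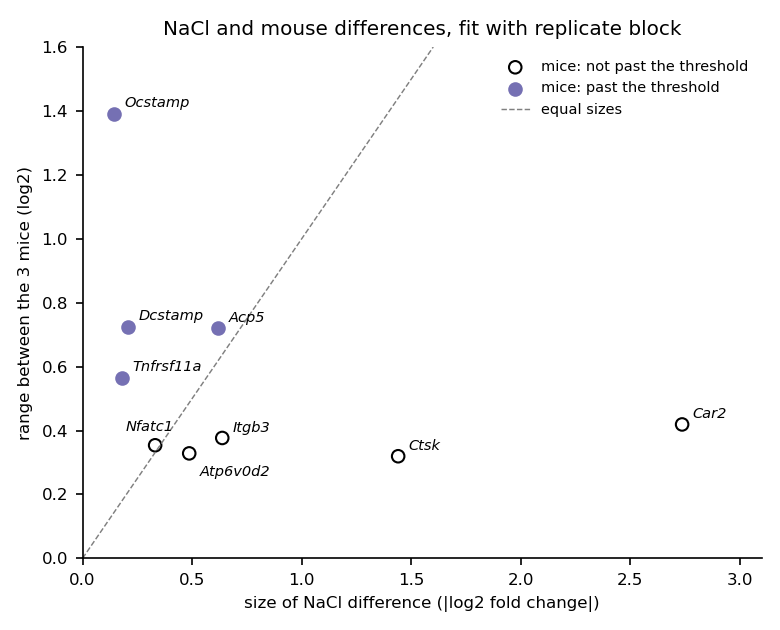
Size of the NaCl difference (x axis, absolute log2 fold change) against the range between the 3 mice (y axis, log2), both from the fit with the replicate block, for the 9 genes. Filled points mark the 4 genes whose difference between mice passed the threshold, and the dashed line marks equal sizes. *Car2* and *Ctsk* lie far to the right at ranges between mice of 0.42 and 0.32, whereas *Ocstamp* lies at the top left at a range of 1.39.

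Levels were compared between genes per kilobase of exon (GENCODE M21), since long transcripts give more reads. In control libraries the order was *Atp6v0d2* with 186 ± 13.7, *Tnfrsf11a* with 31.6 ± 4.15, *Dcstamp* with 26.6 ± 4.27, *Ctsk* with 10.6 ± 0.931, *Nfatc1* with 7.71 ± 1.23, *Acp5* with 7.003 ± 1.80, *Ocstamp* with 3.8005 ± 1.86, *Itgb3* with 2.97 ± 0.131 and *Car2* with 0.437 ± 0.0917 CPM per kilobase (SD, n = 3). The control libraries overlapped between *Tnfrsf11a* and *Dcstamp*, between *Nfatc1* and *Acp5*, between *Acp5* and *Ocstamp* and between *Ocstamp* and *Itgb3*, so these neighbours cannot be ranked. In NaCl, *Ctsk* reached 28.8 ± 5.003 and *Car2* 2.92 ± 0.728 CPM per kilobase. *Atp6v0d1* stood at 90.3 CPM per kilobase in control, below *Atp6v0d2*. *Ctsk* remained far below *Ctsb* and *Ctss*, at 2539.96 and 2599.86 CPM per kilobase in control.

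**Figure D4:**
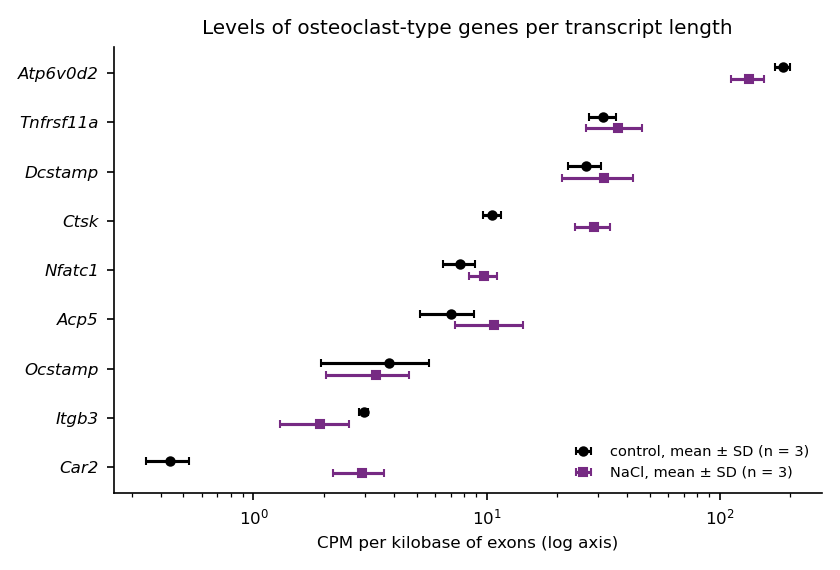
CPM per kilobase of exon (x axis, log scale) for the 9 measured genes in control (black) and NaCl (purple), as mean ± SD (n = 3 each). *Atp6v0d2* leads in both groups, *Car2* moves from 0.437 to 2.92, and *Ctsk* from 10.6 to 28.8.

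The genes whose log2 CPM followed *Ctsk* most closely over the 6 libraries, among 9923 genes with a mean of at least 50 counts, were *Cdkn2d*, *Cntrob*, *Med22*, *Mns1* and *Fxyd2*, with Pearson correlations from 0.990 to 0.997. Those closest to *Acp5* were *Dnpep*, *Trpv2*, *Zfand2b*, *Oxa1l* and *Maged2*, from 0.983 to 0.994. The 6 points of each correlation share libraries and depths, and so many genes were searched that values near 1 are a description only. The lists for *Ctsk* and *Acp5* had no gene in common, but lists this short out of 9923 genes would seldom share one. Nothing is read from that.

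The members were then set beside 135 other genes of osteoclast formation and function, grouped by role, of which 129 were tested. Without the mouse 0 were past the threshold in either direction in edgeR, while 8 higher and 12 lower genes had an unadjusted p under 0.05, beside 6.63% and 6.01% of all genes. DESeq2 called 4 higher and 7 lower, limma-voom 1 and 1 (0.503% and 0.170% of all genes), and the replicate block in edgeR 9 higher and 11 lower, beside 4.60% and 4.30% of all genes. Their median log2 fold change was -0.09, with 81 lower and 48 higher, where 8083 of all 15903 genes were lower. By role, 21 of 29 genes of acid secretion and resorption were lower, with a median of -0.13, as were 15 of 27 of RANK and ITAM signalling (median -0.06), 6 of 9 receptors and adaptors (-0.17), 9 of 17 activating transcription factors (-0.07), 7 of 12 repressors (-0.05), 9 of 14 fusion genes (-0.13) and 13 of 20 genes of attachment (-0.10). Of 4 cytokine and decoy receptor genes only *Csf1* was tested.

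**Figure D5:**
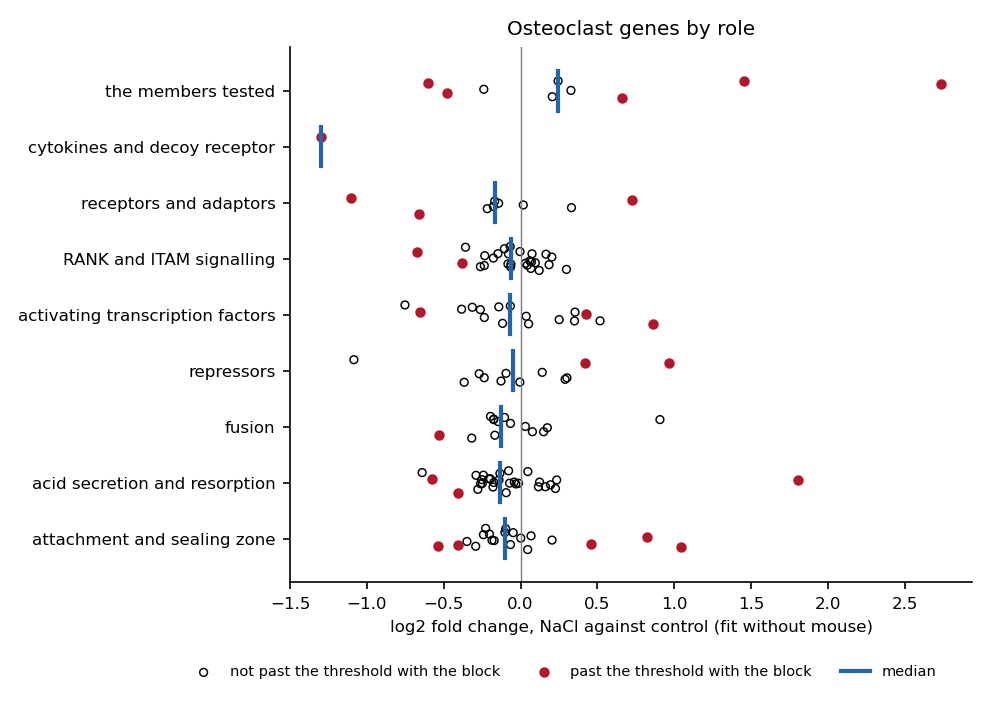
Log2 fold change of NaCl against control in the fit without the mouse (x axis) for the 9 measured members and for the other osteoclast genes by role, with the median of each group as a blue bar. Filled points passed the threshold with the replicate block. *Slc9b2* at 1.81 and *Spp1* at 1.04 lie farthest to the right among the other genes, and *Csf1* at -1.30 farthest to the left.

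Among cytokines and receptors, *Csf1*, the gene of M-CSF, was at 8.19, 8.42 and 8.93 CPM in control and at 2.79, 3.08 and 5.03 CPM in NaCl replicates 1, 2 and 3. It was lower with a log2 fold change of -1.30 (SE 0.25, adjusted p = 0.0563 in edgeR, and 0.000340 with the block). Its receptor *Csf1r* went from 2083 ± 148 to 3443 ± 369 CPM (n = 3 each), which is 0.72 on the log2 scale (SE 0.14, adjusted p = 0.0523, and 0.000298 with the block, in edgeR). The ITAM adaptor *Tyrobp* had a log2 fold change of -0.14 (SE 0.12, adjusted p = 0.677 in edgeR). The inhibitory receptors *Lilrb4a* and *Cd300lf* fell with the block by 0.68 and 1.06 on the log2 scale (adjusted p = 0.000633 and 0.000589 in edgeR), and without it their adjusted p-values were 0.113 and 0.0944. In DESeq2 without the block the adjusted p-values were 0.00259 for *Csf1*, 0.0134 for *Lilrb4a* and 0.0108 for *Cd300lf*. *Csf1r* was past the threshold as higher in that fit too. In signalling, *Traf6*, the adaptor of RANK, had a log2 fold change of -0.15 (SE 0.13, adjusted p = 0.703 in edgeR), and *Ikbkg*, the regulatory subunit of the NF-kappaB kinase, fell with the block by 0.67 (adjusted p = 0.000602 in edgeR, 0.0658 without the block). DESeq2 without the block called *Ikbkg* lower as well.

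Among transcription factors, *Fos*, which acts upstream of *Nfatc1*, was at 224, 76.5 and 171 CPM in control and at 253, 229 and 376 CPM in NaCl replicates 1, 2 and 3. With the block its log2 fold change was 0.96 (SE 0.17, adjusted p = 0.000298 in edgeR), but DESeq2 with the same block gave an adjusted p of 0.144, and edgeR without the block 0.334. The lineage factors *Mitf* and *Spi1* (PU.1) had log2 fold changes of -0.26 (SE 0.17) and 0.25 (SE 0.13), and the repressor *Irf8* of 0.14 (SE 0.14). None of these 3 was past the threshold without the block (adjusted p from 0.471 to 0.732 in edgeR) or with it (from 0.165 to 0.595). *Id1*, a repressor, was at 4.78, 37.7 and 72.6 CPM in control and at 11.5, 129.5 and 87.9 CPM in NaCl replicates 1, 2 and 3, so that mouse 1 lay below the others in both groups. With the block its log2 fold change was 1.08 (SE 0.19, adjusted p = 0.000378 in edgeR), but DESeq2 with the same block gave an adjusted p of 0.111, and edgeR without the block 0.687.

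Among genes of acid secretion, fusion and attachment, *Slc9b2*, a sodium/proton exchanger known from osteoclasts, was at 1.02, 4.53 and 4.44 CPM in control and at 6.03, 18.2 and 11.98 CPM in NaCl replicates 1, 2 and 3. The groups did not overlap, and the log2 fold change was 1.81 (SE 0.49, adjusted p = 0.162 in edgeR) and 1.87 (SE 0.22, adjusted p = 1.96e-06) with the block. *Atp6v0a1* went from 677 ± 16.6 to 454 ± 27.3 CPM (n = 3 each), which is -0.58 on the log2 scale (SE 0.12, adjusted p = 0.0720, and 0.00162 with the block, in edgeR). The pump subunit *Tcirg1* and the chloride channel gene *Clcn7*, both essential for bone resorption, had log2 fold changes of 0.05 (SE 0.17) and -0.01 (SE 0.13), with adjusted p-values of 0.943 and 0.985 in edgeR. *Dock5*, an activator of the small GTPase Rac in osteoclasts, went from 38.4 ± 4.81 to 68.3 ± 11.0 CPM (n = 3 each), which is 0.82 on the log2 scale (SE 0.16, adjusted p = 0.0585, and 4.21e-05 with the block, in edgeR). *Cd44*, a receptor for hyaluronan and osteopontin, fell with the block by 0.54 (adjusted p = 0.00373 in edgeR, 0.130 without the block). *Spp1*, the gene of osteopontin, which the vitronectin receptor binds, rose with the block by 1.01 (SE 0.13, adjusted p = 4.28e-06 in edgeR, 0.251 without the block), at 4813, 10256 and 8771 CPM in control and 9627, 24071 and 15341 CPM in NaCl replicates 1, 2 and 3. In DESeq2 without the block the adjusted p-values were 0.00809 for *Slc9b2*, 0.00125 for *Atp6v0a1* and 0.00132 for *Dock5*. For *Cd44* and *Spp1* they were 0.0214 and 0.0426 in that fit.

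Markers of other cells were read beside these genes. For osteoblasts and stroma 6 of 12 markers were tested, with a summed level of 14.7 to 21.6 CPM in control and 18.04 to 24.7 CPM in NaCl, of which *Runx2* made 13.2 to 15.0 and 15.9 to 20.6 CPM, while *Alpl* and *Ibsp* had 0 counts. For mast cells and basophils 7 of 8 were tested, at 8.76 to 12.8 and 12.3 to 15.8 CPM, and for lymphoid cells 2 of 8, at 5.25 to 9.66 and 2.90 to 10.4 CPM. All 13 neutrophil markers (339 to 619 and 337 to 431 CPM), 8 monocyte markers (132 to 283 and 149.8 to 370.0 CPM) and 10 dendritic cell markers (790.0 to 994 and 748 to 1032 CPM) were tested. With the block 3 neutrophil markers fell and 2 monocyte markers rose, where 4.60% of all genes were higher and 4.30% lower. None of the other lists of this paragraph had a marker past the threshold, and at those shares lists this short may hold none. *Ifitm6*, one of the monocyte markers, also rose without it, from 2.61 ± 0.211 to 28.3 ± 18.2 CPM (n = 3 each, log2 fold change 3.45, SE 0.42, adjusted p = 0.00997 in edgeR). Their part in the differences of *Car2* and *Ctsk* was not tested.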

How the data were processed

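The authors deposited raw counts per gene for 6 libraries. The normalised signal values were also deposited, made by the authors by dividing these counts by 1 DESeq2 size factor per library, and were used only to find the genes by symbol. The authors trimmed 75-base single-end reads with fastp 0.20.0, aligned them with STAR 2.7.10b to mm10 with GENCODE annotation, and counted reads per gene. The libraries are not strand-specific. Positions of the counted genes are given by chromosome only, because the annotation named belongs to another build; the promoter windows carry RefSeq coordinates on GRCm38.p6. The counts were fitted with edgeR 4.0.16 in R 4.3.3 (quasi-likelihood test, TMM scaling, a minimum of 10 counts over all libraries, Benjamini-Hochberg adjustment over 15903 genes, threshold 0.05). CPM were TMM-scaled, and within-mouse ratios used a prior count of 2. DESeq2 1.42.0, limma 3.58.1, other scalings and filters, and leaving out each library served as alternatives. The fits were tested on simulated data.

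Each mouse number marks cells of 1 mouse in both groups. Deviations from the group means correlated across genes by 0.43, 0.15 and 0.22 within mice 1, 2 and 3, and by -0.35 to 0.12 between mice, so the replicate block is printed beside results it changed.

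The 10 genes and all gene lists were chosen with earlier results of these data known. Named are all 10 genes, listed genes past the threshold without the block, the 12 osteoclast genes with the smallest p with the block, a set of pathway genes and paralogs named whatever their values, and the 5 genes most alike in pattern to *Ctsk* and to *Acp5*. Some listed genes are not reported here by name. Exon lengths came from GENCODE M21 and start sites from RefSeq, both on GRCm38, matched by symbol. Intervals and floors cover counting error only, and the largest library was 20123570 counts and the smallest 4088065.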

Additional observations from a re-analysis of the deposited data

How the results depend on the processing

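Of the 10 genes, 2 passed the threshold as higher and 0 as lower without the mouse. With the replicate block 3 passed as higher and 2 as lower in edgeR, and 2 and 1 in DESeq2, where *Acp5* and *Itgb3* were not past the threshold. Thinning every library to the smallest total count before the blocked fit, an alternative chosen after seeing the data, gave 2 higher and 0 lower, with log2 fold changes of 0.48 for *Acp5*, -0.44 for *Atp6v0d2* and -0.55 for *Itgb3*, against 0.62, -0.49 and -0.64 at full depth. The other tested members had larger absolute log2 fold changes after thinning. Among them were *Dcstamp* with 0.47 against 0.21 and *Nfatc1* with 0.44 against 0.33, neither past the threshold. Leaving out each library in turn gave 0 to 2 higher, with 0 without control replicate 2 or control replicate 3 and 1 without NaCl replicate 3. The log2 fold change of *Ocstamp* turned from -0.24 to 0.18 without control replicate 3 and to 0.02 without NaCl replicate 1, within a range of -0.55 to 0.18; the cause was not tested. For the other 129 osteoclast genes, 0 higher and 0 lower without the mouse in edgeR became 9 and 11 with the replicate block, 4 and 7 in DESeq2, 7 and 8 in DESeq2 with the replicate block, 1 and 1 in limma-voom, 6 and 6 with a minimum total count of 1, and 1 and 0 with total count scaling. Leaving out each library gave 0 to 1 higher and 0 to 1 lower. DESeq2 with the replicate block called 2.84% of all genes higher and 2.23% lower. For thinning, left-out libraries, the minimum total count of 1 and total count scaling, the share of all genes called was not counted. Nothing about these genes in particular is therefore read from those counts. Direction was kept for the other 8 measured members under each alternative run. *Oscar* had too few counts to be tested.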
